A study of Mus musculus with 26 samples.

Results

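Fc receptors are cell surface proteins that bind the constant part of antibodies, and the 7 genes described here are Fcgr1, Fcgr2b, Fcgr3, Fcgr4, Fcer1a, Fcer1g and Fcgrt. They were taken by symbol from the gene count table, in which all 7 were found among 48795 genes. The RNA came from mouse myeloid progenitor cells on a C57BL/6 background that had been transformed by Hoxa9 and Meis1 (called H9M) or by MN1, 2 models of acute myeloid leukaemia. Each model was sequenced as control (CTL) or LSD1 knockout (KO) cells, without or with 1 µM all-trans retinoic acid (ATRA), which gives 8 groups of 3 libraries. LSD1 is a histone demethylase encoded by Kdm1a, and the knockout was induced with 0.1 µM 4-hydroxytamoxifen for 72 hours. In addition, the histone mark H3K4me2, found at promoters and enhancers, was measured by ChIP-seq in lineage-negative bone marrow cells of C57BL/6 mice, with 1 library labelled GFI1-WT and 1 labelled GFI-KD, called GFI1-KD here.

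Some limits of these groups bear on every result. All cells were grown with IL-3, IL-6 and stem cell factor, and the same strain entry, a floxed LSD1 allele with a CreERT2-negative label, stands for every RNA sample, knockouts included. The labels do not say whether control cells received tamoxifen too, so an effect of the drug and an effect of the knockout cannot be told apart. Nothing says whether the 3 libraries of a group came from separate cultures, so p-values measure the spread between these libraries, which may be technical. The H9M and MN1 libraries carry different LR codes in their column names, whose meaning no label gives, so the model and whatever the code stands for cannot be told apart.

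In an antibody-armed myeloid cell, activating receptors and an inhibitory receptor bind the same antibody complexes. Fcgr1 encodes the high-affinity IgG receptor, and Fcgr3 and Fcgr4 encode activating receptors of lower affinity. These chains reach the surface together with the common gamma chain, encoded by Fcer1g, whose tail is phosphorylated by Src family kinases and recruits Syk. Fcgr2b encodes the inhibitory receptor, which recruits the phosphatase SHIP1 (Inpp5d). Fcer1a encodes the IgE-binding chain found on mast cells and basophils, where it assembles with Ms4a2 and the gamma chain. Fcgrt encodes FcRn, which binds IgG inside the cell, pairs with beta-2-microglobulin (B2m) and protects IgG from breakdown.

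Fcgr2b (chromosome 1, 170960558 to 170976071), Fcgr4 (171018926 to 171029761) and Fcgr3 (171051169 to 171065915) lie side by side within 105.4 kb in the GRCm38.p6 annotation. Fcer1g (171229572 to 171234349) starts 163.7 kb beyond Fcgr3, and Fcer1a (173221269 to 173227232) is farther along the same chromosome. Fcgr1 is on chromosome 3 (96282909 to 96293969) and Fcgrt on chromosome 7 (45092993 to 45103822). Fcgr2b, Fcgr3 and Fcgr4 are paralogs that share sequence, Fcgr3 overlaps 3 tRNA genes and Mir6546, and Fcgr4 overlaps Gm26110, so reads could be split between them in the authors' counting.

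The 4 IgG receptor genes differ in the bases just before their starts, which are shown because H3K4me2 and RNA at these genes are described below. Each stretch is the 150 bases upstream of the start in the RefSeq promoter table (GRCm38.p6), written 5′ to 3′ on the gene's strand. Capitals mark a match to GAGGAA, a core of sites known for PU.1 (Spi1), on either strand.
Fcgr1, chr3:96293970-96294119, minus strand: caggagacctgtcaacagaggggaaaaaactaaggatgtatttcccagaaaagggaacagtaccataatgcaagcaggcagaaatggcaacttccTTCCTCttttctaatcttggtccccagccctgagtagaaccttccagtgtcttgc
Fcgr2b, chr1:170976072-170976221, minus strand: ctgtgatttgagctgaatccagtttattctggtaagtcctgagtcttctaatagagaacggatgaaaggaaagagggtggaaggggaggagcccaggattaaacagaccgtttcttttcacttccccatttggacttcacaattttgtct
Fcgr3, chr1:171059404-171059553, minus strand: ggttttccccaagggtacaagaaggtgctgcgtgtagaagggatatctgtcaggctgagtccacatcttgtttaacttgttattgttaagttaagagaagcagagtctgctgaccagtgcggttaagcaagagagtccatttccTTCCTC
Fcgr4, chr1:171018776-171018925, plus strand: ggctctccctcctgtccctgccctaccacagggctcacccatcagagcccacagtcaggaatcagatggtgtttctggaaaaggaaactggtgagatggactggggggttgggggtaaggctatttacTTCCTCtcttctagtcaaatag

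Fcgr1, Fcgr3 and Fcgr4 hold a match in the printed stretch, beginning 55, 6 and 22 bases before the start. For Fcgr3 that start is 6512 bases inside the annotated gene, so its stretch and its match lie within the gene, not at its outer end. Fcgr2b holds none there or in the 250 bases that were searched. A total of 6 motifs was searched on both strands in the 250 bases upstream of 27025 gene starts, and they were chosen after the letters of these promoters had been read. GAGGAA was found in 23.1% of all promoters and in 4 of the 7 genes, the fourth being Fcer1a. AGGAAGT, a longer PU.1 form, was found in 7.80% of all promoters and in Fcgr1 and Fcgr4. In Fcgr4 it lies at -24 to -18 and largely overlaps the core match at -22 to -17. In Fcgr1 it lies at -61 to -55 and shares only its end base with the core match at -55 to -50. TTCNNNGAA, the form of interferon-gamma activated sites, was found in 7.18% of all promoters and, of the 7, in Fcgr1. AGATAA, known for the GATA factors, was found in 10.3% and in Fcer1a. AAATCA, known for GFI1, was found in 12.7% and in Fcgr2b, and TTGCGCAA, known for C/EBP factors, in 0.170% and in none of the 7. All 7 genes had an entry in the promoter table.

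The 24 libraries held 22402558 to 32674685 counts each, and Kdm1a fell to 0.693% of the control level in H9M KO, 7.51% in H9M KO with ATRA, 0.747% in MN1 KO and 1.09% in MN1 KO with ATRA. Values per library are CPM, a gene's counts per 1000000 counts of the library. They compare the same gene between libraries, not different genes, since transcript lengths were not used here. The threshold for a call was an adjusted p of 0.05 in edgeR's quasi-likelihood test, with Benjamini-Hochberg adjustment over the 14663 genes that passed a filter on low counts. All 7 members passed that filter, Fcgr1 only through the H9M knockout libraries and Fcer1a through the MN1 libraries alone. Their inclusion is therefore not independent of where they are high. Member counts below that involve H9M KO include Fcgr1, whose high level there is tied to its inclusion. In bulk RNA, fewer expressing cells and less RNA per cell cannot be told apart.

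Without ATRA, 6 of the 6 members with counts in H9M were higher in KO than in CTL, where 26.1% of all genes tested were called higher. Their log2 fold changes ran from 0.27 to 4.47 with a median of 1.49, against a median of 0.00 over all genes. The highest, Fcgr1, passed the filter through the H9M KO libraries, so its rise and its place in this count are no independent support. The next highest was 2.17 for Fcgr4. In MN1, 6 of 7 members were higher in KO, where 28.7% of all genes were called higher, with a median of 1.56. The 3 replicates of KO and CTL did not overlap for any of these members in either model. The share of all genes whose replicates did not overlap was not counted, so this describes the members and does not set them apart. Fcer1g in MN1 was the member not called, although its KO libraries lay above its CTL libraries.

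**Figure D1:**
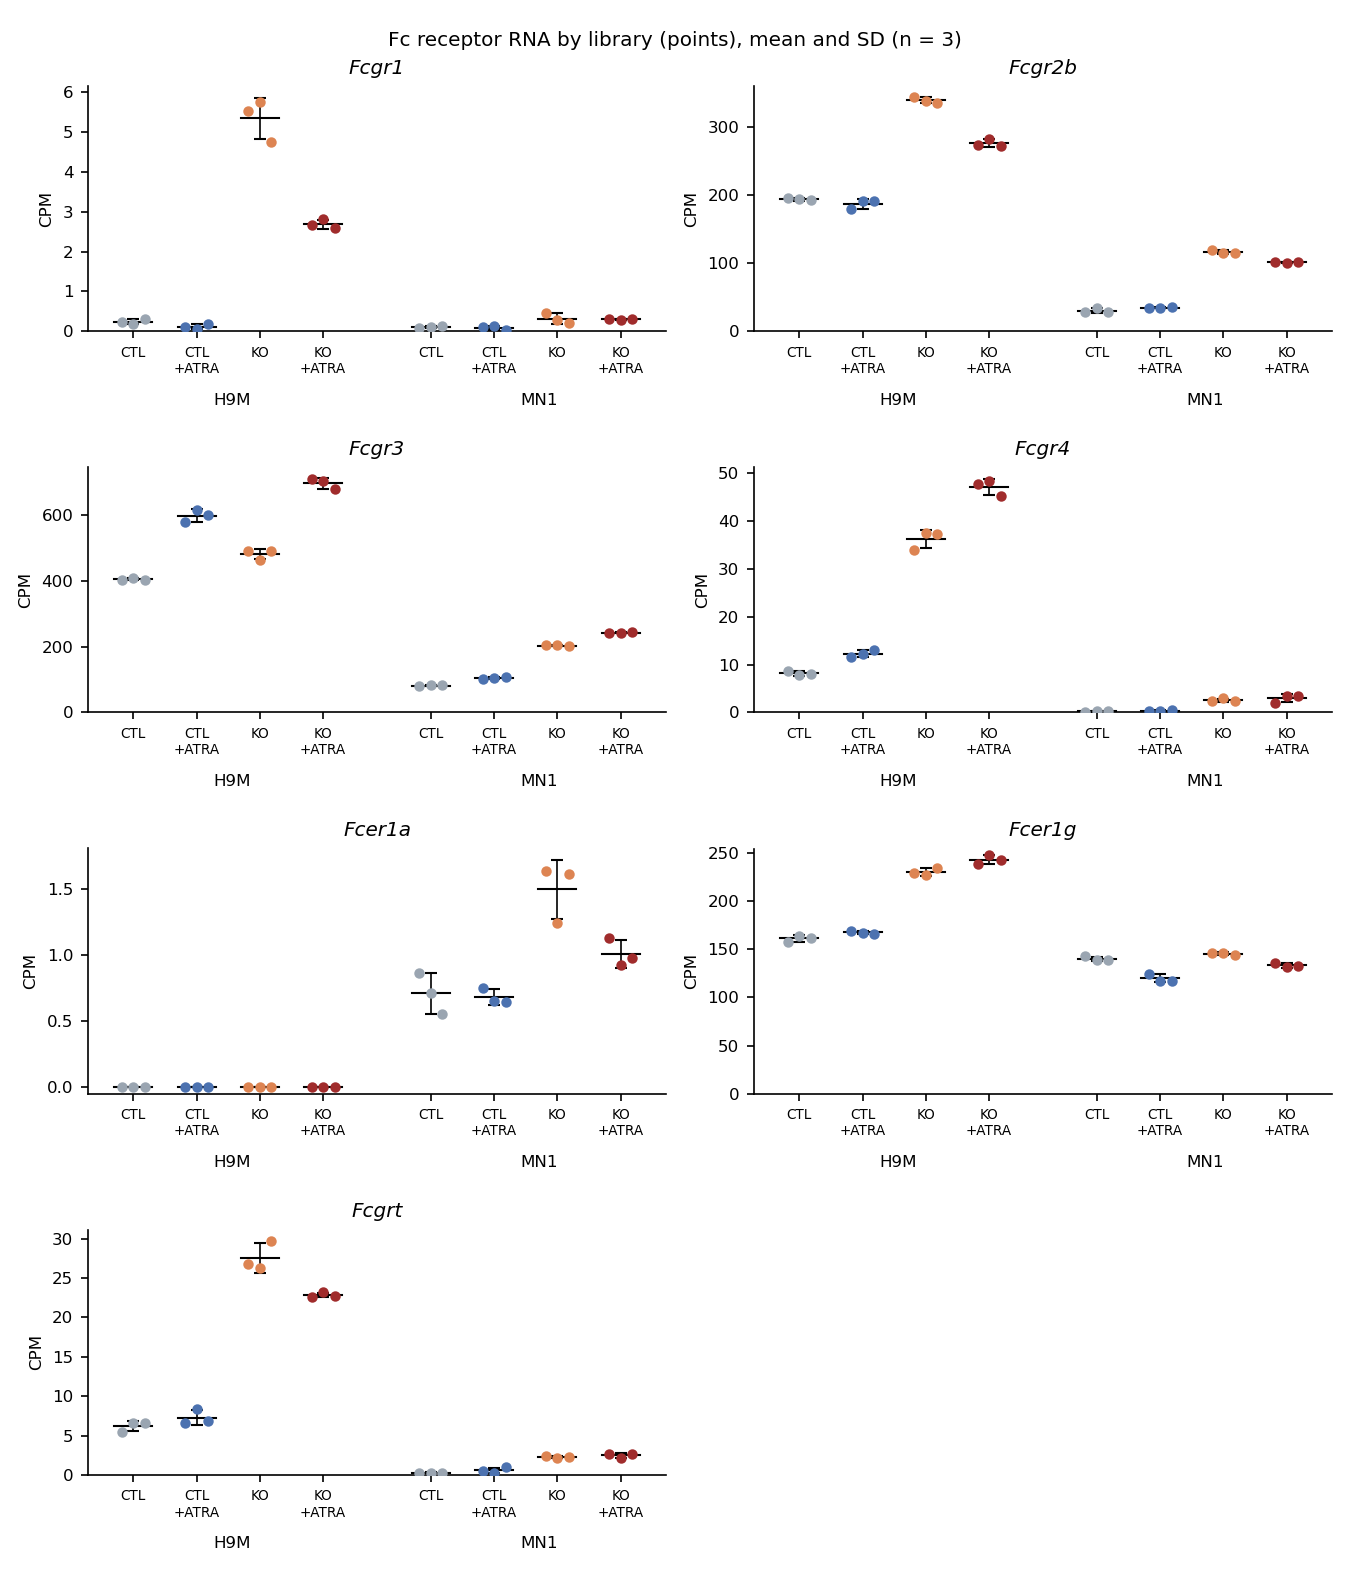
RNA level of each Fc receptor gene in CPM (vertical axis, linear) in the 8 groups; points are libraries, the horizontal line is the mean and the bars are the SD (n = 3). The Fcgr1 points of H9M KO (4.76 to 5.75 CPM) stand above all other groups, and Fcer1a is at 0 in all 12 H9M libraries.

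The high-affinity receptor gene Fcgr1 was almost silent in control cells. H9M CTL libraries had 0.231, 0.177 and 0.314 CPM, which were 6, 5 and 8 counts. H9M KO libraries had 5.54, 5.75 and 4.76 CPM, or 124, 144 and 130 counts. The groups were far apart, with a log2 fold change of 4.47 ± 0.23 (SE, n = 3 per group), or 22.2-fold (adjusted p = 2.49e-16). In MN1 the gene stayed at the edge of detection: CTL libraries had 2, 3 and 4 counts and KO libraries 12, 7 and 5. The MN1 difference was 1.56 ± 0.47 (adjusted p = 0.00593), and it was no longer called without KO replicate 1 (1.16, adjusted p = 0.103).

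Fcgr4, the activating receptor gene between Fcgr2b and Fcgr3, rose in both models. H9M CTL libraries had 8.63, 7.81 and 8.01 CPM, and KO libraries had 34.0, 37.4 and 37.4 CPM. MN1 CTL libraries had 0.0755, 0.258 and 0.295 CPM, which were only 2, 8 and 9 counts. MN1 KO libraries had 2.40, 2.93 and 2.31 CPM. No KO library of either model overlapped its controls. The log2 fold change was 2.17 ± 0.09 in H9M (4.50-fold, adjusted p = 8.02e-19) and 3.52 ± 0.29 in MN1 (11.5-fold, adjusted p = 9.75e-12). The MN1 knockout level remained below the H9M control level.

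Fcgr3, the other activating receptor gene of the cluster, changed little in H9M and more in MN1. H9M CTL libraries had 404, 409 and 403 CPM, and KO libraries had 490.3, 465 and 492 CPM. MN1 CTL libraries had 79.8, 83.1 and 82.9 CPM, and KO libraries had 205, 205 and 201 CPM. The replicates lay close together and the groups were apart in each model. The log2 fold change was 0.27 ± 0.03 in H9M (1.20-fold, adjusted p = 1.91e-08) and 1.31 ± 0.03 in MN1 (2.48-fold, adjusted p = 5.41e-24).

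Fcgr2b, the inhibitory receptor gene, rose in both models, with a larger fold change than Fcgr3 in each. H9M CTL libraries had 196, 194 and 192 CPM, and KO libraries had 344, 338 and 336 CPM. MN1 CTL libraries had 28.2, 34.2 and 28.6 CPM, and KO libraries had 119, 115 and 114 CPM. All KO libraries were higher than all CTL libraries of their model. The log2 fold change was 0.82 ± 0.04 in H9M (1.77-fold, adjusted p = 6.38e-17) and 1.93 ± 0.05 in MN1 (3.81-fold, adjusted p = 1.76e-24).

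Fcer1g, the common gamma chain, rose in H9M, from 158, 164 and 162 CPM in CTL to 229.7, 227 and 235 CPM in KO. The log2 fold change was 0.53 ± 0.03 (1.44-fold, adjusted p = 1.03e-14). In MN1, CTL libraries had 143, 138 and 139 CPM and KO libraries had 147, 146 and 144 CPM. That difference was not called (0.05 ± 0.03, 95% interval -0.02 to 0.12, adjusted p = 0.189), although the activating receptor genes it serves rose in the same libraries.

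Fcgrt, the FcRn heavy chain, rose in both models. H9M CTL libraries had 5.51, 6.64 and 6.55 CPM, and KO libraries had 26.7, 26.3 and 29.7 CPM. MN1 CTL libraries had 0.302, 0.194 and 0.262 CPM, which were only 8, 6 and 8 counts. MN1 KO libraries had 2.44, 2.12 and 2.274 CPM. The groups did not overlap. The log2 fold change was 2.16 ± 0.10 in H9M (4.46-fold, adjusted p = 1.41e-17) and 3.16 ± 0.29 in MN1 (8.95-fold, adjusted p = 8.21e-11). Its partner B2m rose by 0.18 ± 0.03 in H9M, from 1062 to 1194 CPM (adjusted p = 5.66e-06), and by 0.29 ± 0.03 in MN1, from 195 to 239 CPM (adjusted p = 2.39e-09).

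Fcer1a, the IgE-binding chain, had no count in any of the 12 H9M libraries. MN1 CTL libraries had 0.868, 0.710 and 0.557 CPM, and MN1 KO libraries had 1.64, 1.24 and 1.62 CPM. All KO libraries were higher than all CTL libraries, with a log2 fold change of 1.08 ± 0.24 (2.11-fold, adjusted p = 6.67e-04). Without ATRA, the MN1 control mean was at least 18.9-fold higher than H9M, taking 3 counts over the H9M control group as the floor. Ms4a2, the beta chain of the same receptor, was at 1.07 ± 0.10 CPM (SD, n = 3) in H9M CTL and 67.0 ± 3.86 CPM in MN1 CTL. Ms4a2 rose in KO in both models, by 0.89 ± 0.26 in H9M (adjusted p = 0.00443) and 0.73 ± 0.07 in MN1 (adjusted p = 1.80e-10).

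The same direction was seen where both arms had received ATRA. In H9M, 6 of 6 members were higher in KO with ATRA than in CTL with ATRA (26.7% of all genes), with log2 fold changes of 4.56 for Fcgr1, 1.94 for Fcgr4, 1.66 for Fcgrt, 0.56 for Fcgr2b, 0.54 for Fcer1g and 0.22 for Fcgr3. In MN1, 6 of 7 were higher (28.6% of all genes), with 3.16 for Fcgr4, 2.09 for Fcgrt, 1.62 for Fcgr1, 1.54 for Fcgr2b, 1.19 for Fcgr3 and 0.13 for Fcer1g. Fcer1g, not called without ATRA, passed here at a small size (adjusted p = 0.00104), and Fcer1a did not pass (0.54 ± 0.26, adjusted p = 0.0857). The H9M KO libraries with ATRA kept more Kdm1a than the other knockout groups. With the matching share of the control profile subtracted from every KO library, these 12 calls kept their direction and their side of the threshold.

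**Figure D2:**
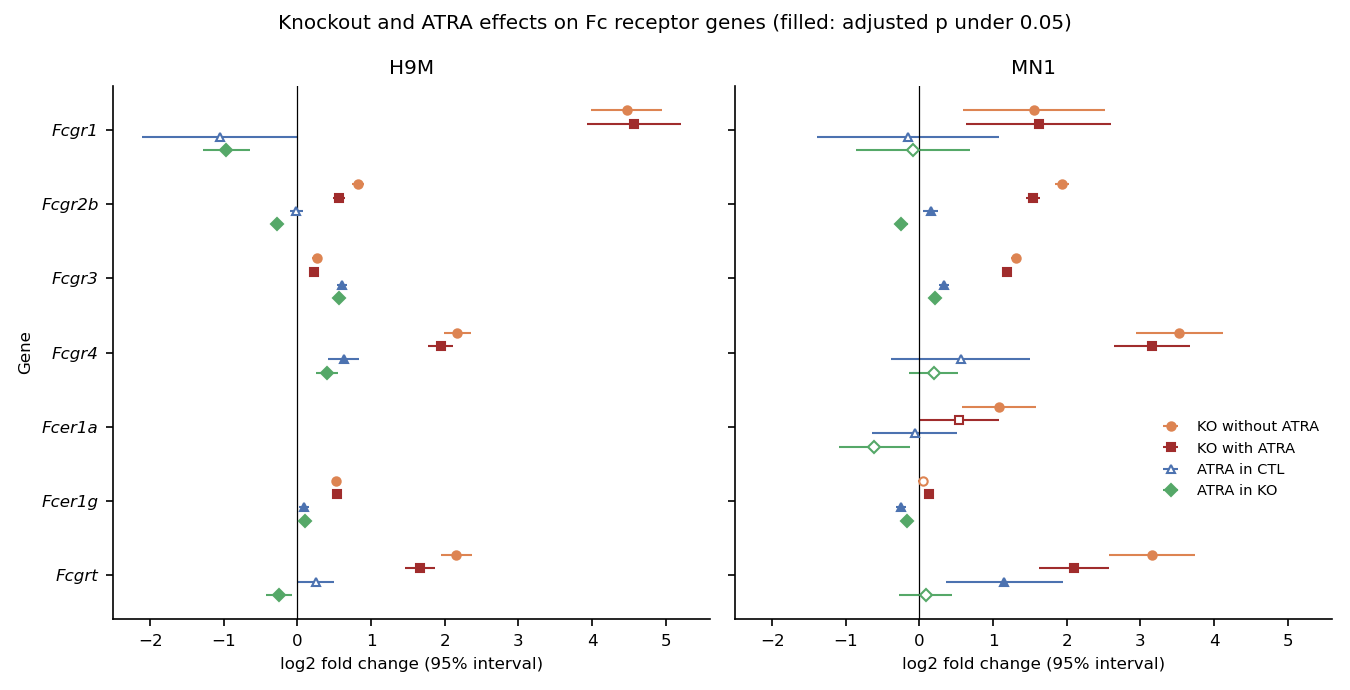
Log2 fold change (horizontal axis, bars are 95% intervals) of each Fc receptor gene for the knockout effect without and with ATRA and the ATRA effect in CTL and KO cells, in H9M (left) and MN1 (right). Knockout effects lie right of 0 for every member shown, from 0.05 for Fcer1g in MN1 to 4.56 for Fcgr1 in H9M with ATRA, and the ATRA effects lie on both sides of 0; Fcer1a has no value in H9M.

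The size of the knockout effect was not the same in both models. The difference of the knockout effects (MN1 minus H9M, no ATRA) was called for 6 of the 6 members that could be tested, against 28.4% of all genes. Fcgr4 (1.36 ± 0.35, adjusted p = 0.00342), Fcgr2b (1.11 ± 0.06, adjusted p = 6.61e-15), Fcgr3 (1.04 ± 0.05, adjusted p = 1.61e-17) and Fcgrt (1.00 ± 0.34, adjusted p = 0.0267) rose by a larger fold in MN1, from lower control levels. In mean CPM the rise was larger in H9M for Fcgr4, Fcgr2b and Fcgrt, and larger in MN1 for Fcgr3. For Fcgr4 the means went from 8.15 to 36.3 CPM in H9M and from 0.210 to 2.55 CPM in MN1. Fcgr1 (-2.91 ± 0.67, adjusted p = 0.00109) and Fcer1g (-0.48 ± 0.05, adjusted p = 1.16e-09) rose more in H9M. The Fcgrt difference was lost without MN1 CTL replicate 2 (0.84, adjusted p = 0.126), replicate 3 (1.04, adjusted p = 0.0649) or MN1 KO replicate 1 (0.95, adjusted p = 0.0534).

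Starting levels differed as well. In untreated controls, 6 members were lower in MN1 than in H9M, where 35.9% of all genes were called lower. Fcer1a, which had counts in MN1 alone and passed the filter through it, is left out of that count. Fcgr4 was 39.3-fold lower, Fcgrt 26.1-fold, Fcgr2b 6.79-fold, Fcgr3 5.26-fold and Fcer1g 1.22-fold. The values for Fcgr4 and Fcgrt rest on 19 and 22 counts over the MN1 CTL group. Fcgr1 was 2.42-fold lower (adjusted p = 0.0276) and was not called when H9M CTL replicate 3 (adjusted p = 0.125), MN1 CTL replicate 1 (adjusted p = 0.0788) or MN1 CTL replicate 2 (adjusted p = 0.0636) was left out. Fcer1g was thus the member closest in level between the models.

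ATRA alone moved the members apart. In H9M control cells, 3 of 6 were called (25.2% of all genes in either direction), and all 3 rose. Fcgr3 rose from 404, 409 and 403 CPM to 579, 618 and 601 CPM (0.60 ± 0.03, adjusted p = 9.78e-16). Fcgr4 rose from 8.63, 7.81 and 8.01 CPM to 11.7, 12.2 and 12.99 CPM (0.63 ± 0.10, adjusted p = 2.11e-05). The groups did not overlap for these 2 genes, nor for Fcer1g, nor for Fcgr1 and Fcgr2b, which were not called. The share of all genes without overlap was not counted. Fcer1g passed at 0.09 ± 0.03 (adjusted p = 0.0383), a call that was lost in 5 of 6 fits that left out 1 library (adjusted p up to 0.157). Fcgr2b had 179, 192 and 191 CPM with ATRA and did not pass (-0.02 ± 0.04, adjusted p = 0.850), and neither did Fcgr1 (-1.06 ± 0.52, adjusted p = 0.168) nor Fcgrt (0.25 ± 0.12, adjusted p = 0.139).

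In H9M knockout cells, ATRA split the 6 members into 3 that rose and 3 that fell, where 29.4% of all genes were called in either direction. Fcgr3 rose from 490.3, 465 and 492 CPM to 712, 704 and 679.9 CPM (0.56 ± 0.03, adjusted p = 3.90e-15), and Fcgr4 rose to 47.8, 48.5 and 45.3 CPM (0.40 ± 0.07, adjusted p = 9.48e-05). Fcgr1 fell from 5.54, 5.75 and 4.76 CPM to 2.66, 2.81 and 2.59 CPM (-0.96 ± 0.15, adjusted p = 1.09e-05), which was 1.95-fold lower. Fcgr2b fell from 344, 338 and 336 CPM to 274, 283 and 272 CPM (-0.27 ± 0.04, adjusted p = 2.91e-06). No library of one group overlapped the other for any of the 6 members, and the share of all genes without overlap was not counted. Fcer1g rose by 0.10 ± 0.03 (adjusted p = 0.0150), and Fcgrt was lower at -0.25 ± 0.09 (adjusted p = 0.0291). Fcer1g lost its call in 2 of 6 fits without 1 library (adjusted p up to 0.0929) and Fcgrt in 4 of 6 (adjusted p up to 0.155).

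In MN1 control cells, ATRA gave 4 calls among 7 members (21.8% of all genes). Fcgr3 rose from 79.8, 83.1 and 82.9 CPM to 103, 104 and 108 CPM (0.33 ± 0.03, adjusted p = 7.42e-09). Fcer1g fell from 143, 138 and 139 CPM to 125, 117 and 117 CPM (-0.25 ± 0.03, adjusted p = 9.56e-07). The groups did not overlap for these 2 genes. Fcgr2b (0.15 ± 0.05, adjusted p = 0.0325) and Fcgrt (1.15 ± 0.39, adjusted p = 0.0316) passed as higher, but each lost its call in 4 of 6 fits without 1 library. Without CTL with ATRA replicate 3, the Fcgrt value was 0.65 (adjusted p = 0.306).

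In MN1 knockout cells, ATRA gave 3 calls among 7 (18.8% of all genes). Fcgr3 rose to 241, 242 and 245 CPM (0.22 ± 0.03, adjusted p = 7.16e-06), Fcgr2b fell to 101, 99.9 and 102 CPM (-0.24 ± 0.04, adjusted p = 8.31e-05) and Fcer1g fell to 136, 131 and 133 CPM (-0.17 ± 0.03, adjusted p = 3.19e-04). Fcer1a was lower in each of the 3 ATRA libraries (1.13, 0.924 and 0.979 CPM) than in the 3 without, yet the change did not pass (-0.61 ± 0.23, adjusted p = 0.0711). Thus Fcgr3 was higher with ATRA in all 4 comparisons and the inhibitory Fcgr2b was lower with ATRA in the knockout cells of both models. The ATRA effect in control cells differed between the models for 2 of 6 members (13.8% of all genes), being lower in MN1 for Fcgr3 (-0.27 ± 0.05, adjusted p = 9.78e-05) and Fcer1g (-0.34 ± 0.05, adjusted p = 2.92e-06).

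The knockout by ATRA interaction asks whether the knockout effect is another one when ATRA is present. For Fcgr2b it was smaller with ATRA in H9M (-0.26 ± 0.06, adjusted p = 0.00460) and in MN1 (-0.40 ± 0.07, adjusted p = 3.90e-04). Fcgrt also passed in H9M (-0.49 ± 0.15, adjusted p = 0.0461), but that call was lost in 10 of 12 fits without 1 library (adjusted p up to 0.197) and with the residual control share removed (-0.42, adjusted p = 0.101). That made 2 of 6 members in H9M, where 5.04% of all genes were called, and 1 of 7 in MN1, where 2.78% were. For Fcgr3 the interaction was -0.04 (95% interval -0.13 to 0.04) in H9M and -0.12 (-0.21 to -0.02) in MN1 and was not called (adjusted p = 0.718 and 0.225).

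Knockout and ATRA together were compared with neither. In H9M, 6 of 6 members were higher (28.4% of all genes), with Fcgr1 at 3.51, Fcgr4 at 2.57, Fcgrt at 1.91, Fcgr3 at 0.82, Fcer1g at 0.63 and Fcgr2b at 0.55. In MN1, 5 members were higher and Fcer1g was lower (60.6% of all genes in either direction), with Fcgr4 at 3.72, Fcgrt at 3.24, Fcgr2b at 1.69, Fcgr3 at 1.52 and Fcgr1 at 1.47. Fcer1g stood at -0.12 ± 0.03 (adjusted p = 0.00275), which was not called without MN1 CTL without ATRA replicate 1 (-0.07, adjusted p = 0.121). Fcer1a did not pass (0.47 ± 0.26, adjusted p = 0.124). These comparisons share their control libraries with those above.

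By group means, the order of groups was therefore a different one for each gene. Fcgr2b and Fcgrt differed only in the order of neighbouring groups whose Fcgrt libraries overlapped. Fcgr3, Fcgr4 and Fcer1g were highest in H9M KO with ATRA (698, 47.2 and 243 CPM on average), while Fcgr1, Fcgr2b and Fcgrt were highest in H9M KO without it (5.35, 339 and 27.6 CPM). Fcgr3 in H9M control cells with ATRA (599 CPM) was above Fcgr3 in H9M KO cells without it (483 CPM), and these groups did not overlap. For Fcgr4 that order was turned around, with 12.3 CPM in CTL with ATRA and 36.3 CPM in KO. All 8 groups of Fcgr3 were apart from their neighbours in rank, and so were those of Fcer1g, whose means ran from 119.8 to 243 CPM. For Fcgr1 the libraries of MN1 KO, MN1 KO with ATRA and H9M CTL overlapped along the ranking, as did the lowest 3 groups.

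The balance of activating and inhibitory IgG receptor RNA was followed as the ratio of Fcgr3 to Fcgr2b counts within each library, a measure chosen after these values had been seen. H9M CTL libraries had ratios of 2.06, 2.11 and 2.10, and KO libraries had 1.42, 1.37 and 1.47. With ATRA the H9M ratios were 3.23, 3.22 and 3.16 in CTL and 2.60, 2.49 and 2.501 in KO. The knockout libraries were lower and the ATRA libraries higher, with no overlap between any of these groups. MN1 CTL libraries had 2.83, 2.43 and 2.90, and KO libraries had 1.71, 1.78 and 1.76. With ATRA the MN1 ratios were 3.08, 2.99 and 3.12 in CTL and 2.39, 2.42 and 2.41 in KO. In both models the lowest ratio was in KO without ATRA and the highest in CTL with ATRA. Each of these pairs gave a two-sided exact permutation p of 0.1, the smallest that 3 against 3 allows, so none could reach 0.05. A ratio of counts shows unequal change of the 2 genes, not which protein dominates, and it also carries the difference in transcript length.

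**Figure D3:**
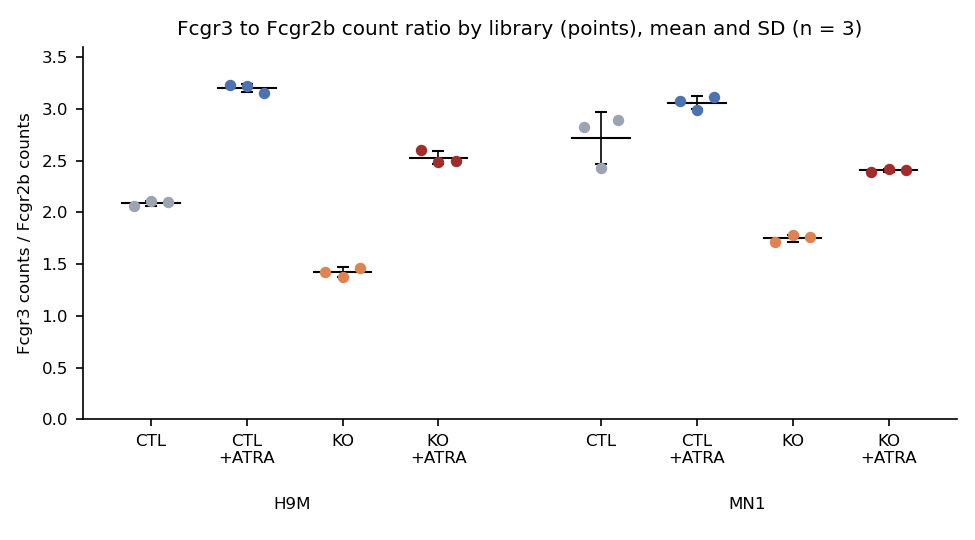
Ratio of Fcgr3 to Fcgr2b counts (vertical axis, from 0) in each library of the 8 groups; lines are means and bars the SD (n = 3). In both models the KO libraries without ATRA lie lowest (1.37 to 1.47 in H9M, 1.71 to 1.78 in MN1) and the CTL libraries with ATRA highest.

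The knockout effect at the Fcgr cluster was set beside that of its neighbours on chromosome 1. A window of 100 kb either side of Fcgr2b and Fcgr3, fixed after the member values were known, holds 44 annotated genes, of which 11 were tested. Fcrlb, an Fc receptor-like gene, was at only 0.102 CPM in H9M CTL and 0.0561 CPM in MN1 CTL. Its log2 fold change was 2.14 ± 0.51 in H9M (adjusted p = 8.09e-04) and 1.38 ± 0.71 in MN1 (adjusted p = 0.101). A gene this low in CTL could pass the low-count filter through groups where it is higher, so its rise is no independent support. Atf6, a stress response transcription factor gene, rose by 0.71 ± 0.04 in H9M and 0.56 ± 0.04 in MN1. Dusp12, between Atf6 and Fcrlb, did not pass in either model (0.17 and 0.13, adjusted p = 0.161 and 0.221). Sdhc, a subunit of succinate dehydrogenase, was at -0.07 ± 0.04 in H9M (adjusted p = 0.172) and -0.13 ± 0.04 in MN1 (adjusted p = 0.00521).

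**Figure D4:**
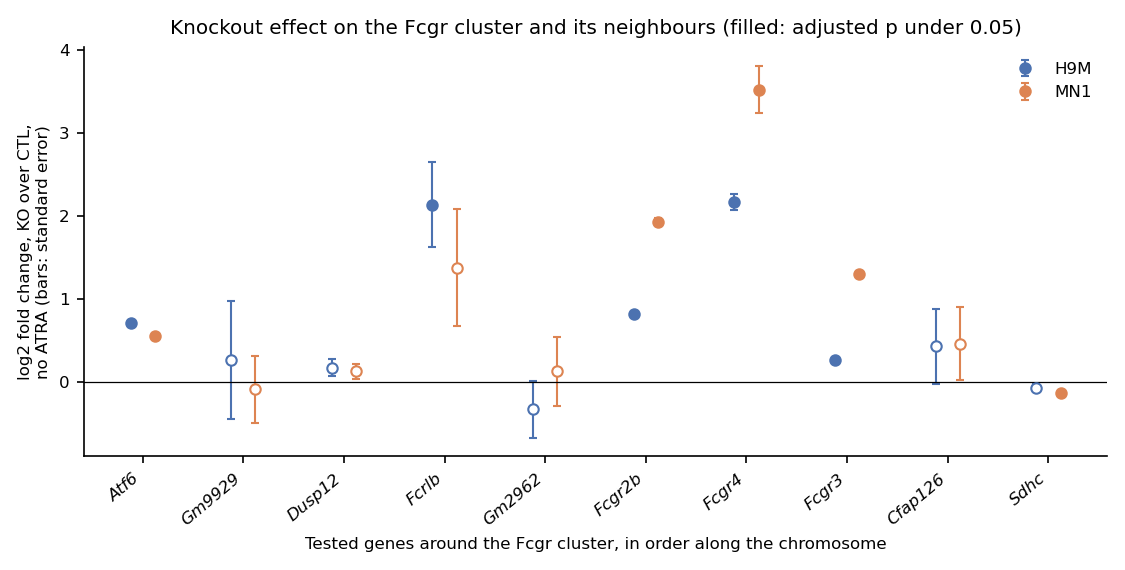
Knockout effect without ATRA (vertical axis, log2 fold change, bars are standard errors) for 10 of the 11 tested genes around the Fcgr cluster, in their order along the chromosome, in H9M and MN1. Fcgr4 has the highest value in each model (2.17 and 3.52), while Dusp12 and Sdhc lie near 0.

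Genes of the receptors' signalling pathway moved in both directions. Of 22 kinases and adaptors of activating Fc receptor signalling, all tested, 10 rose and 5 fell in H9M KO without ATRA (median log2 fold change 0.12, against 0.00 for all genes), and 13 rose and 2 fell in MN1 KO (median 0.14, against 0.01). Over all genes, 26.1% were called higher and 25.4% lower in H9M, and 28.7% higher and 26.3% lower in MN1, so the share of these genes that fell in H9M was near that of all genes. Tyrobp, an adaptor with the same kind of signalling motif as the gamma chain, rose from 84.2 ± 3.29 to 185 ± 1.87 CPM in H9M (1.15 ± 0.05, adjusted p = 1.19e-18) and from 1.68 ± 0.40 to 6.24 ± 0.60 CPM in MN1 (1.89 ± 0.13, adjusted p = 2.51e-13). Lyn, the Src family kinase that phosphorylates the receptor tails, rose by 0.50 ± 0.04 in H9M (adjusted p = 2.58e-12) and by 0.17 ± 0.04 in MN1 (adjusted p = 3.98e-04). Syk, the kinase that binds the phosphorylated gamma chain, was lower by a small amount in H9M (-0.11 ± 0.03, adjusted p = 0.00509) and higher by a small amount in MN1 (0.08 ± 0.03, adjusted p = 0.0384). Lcp2 (SLP-76), an adaptor downstream of Syk, rose by 0.28 ± 0.04 in H9M (adjusted p = 2.95e-06) and by 1.53 ± 0.08 in MN1 (adjusted p = 1.96e-16).

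Of 8 inhibitory signalling partners, 4 rose and 3 fell in H9M KO without ATRA (median 0.13), and 3 rose and 3 fell in MN1 KO (median 0.05). The same shares of all genes, 26.1% higher and 25.4% lower in H9M and 28.7% and 26.3% in MN1, and all-gene medians of 0.00 and 0.01 stand beside these counts. Inpp5d, the phosphatase recruited by Fcgr2b, was at 182 ± 5.56 CPM in H9M CTL and 183 ± 4.36 CPM in KO (0.02 ± 0.04, adjusted p = 0.677), and it was lower in MN1 KO (-0.18 ± 0.03, adjusted p = 4.53e-05). Inpp5d therefore did not rise with Fcgr2b in either model. Ptpn6 (SHP-1), another inhibitory phosphatase, rose by 0.32 ± 0.03 in both models (adjusted p = 1.09e-09 in H9M and 2.54e-09 in MN1).

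Other receptors that signal through the gamma chain were mostly higher in KO. Of the 6 tested among 10 listed, 6 rose in H9M KO without ATRA (median 3.02, against 0.00 for all genes) and 5 in MN1 KO (median 1.95, against 0.01), where 26.1% and 28.7% of all genes were called higher. Genes with few counts in CTL, such as Tarm1 below, could pass the low-count filter through their KO libraries. These counts and medians are therefore partly tied to that filter, and those of the Fc receptor-like genes below may be too. Clec4d, a C-type lectin receptor, rose from 31.3 ± 4.12 to 134 ± 4.11 CPM in H9M (2.11 ± 0.06, adjusted p = 1.12e-23) and from 8.94 ± 0.26 to 123 ± 6.09 CPM in MN1 (3.78 ± 0.07, adjusted p = 3.35e-28). Tarm1, a receptor of myeloid cells, went from 3 to 1602 counts over the 3 libraries in H9M, a ratio of 569 (exact 95% counting interval 194 to 2759.7), and from 0.210 ± 0.143 to 28.1 ± 0.62 CPM in MN1 (6.99 ± 0.17, adjusted p = 2.17e-24). Of the 12 other Fc receptors and Fc receptor-like genes, 6 were tested, and 4 of them rose in H9M KO (median 1.27) and 2 in MN1 KO (median 1.05). The MN1 share is near the 28.7% of all genes called higher there, and the H9M share stands beside 26.1%. Fcrl1, a B cell surface protein, rose in H9M from 0.599 ± 0.101 to 5.24 ± 0.66 CPM (3.12 ± 0.18, adjusted p = 1.17e-14). In MN1, Fcrl1 had 0 counts in CTL and 106 in KO, at least 40.3-fold higher against 3 counts over the group.

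Transcription factors known at Fc receptor genes were listed as well. Of 13 tested, 9 rose and 2 fell in H9M KO without ATRA (median 0.18), and 9 rose and 2 fell in MN1 KO (median 0.18). Over all genes, 26.1% were called higher and 25.4% lower in H9M (median 0.00), and 28.7% and 26.3% in MN1 (median 0.01). Spi1, which encodes PU.1, rose by 0.18 ± 0.04 in both models (adjusted p = 4.15e-04 in H9M and 6.85e-04 in MN1). Irf8, a factor of monocyte development, rose from 8.06 ± 0.62 to 395 ± 5.46 CPM in H9M (5.63 ± 0.06, adjusted p = 9.47e-35) and from 8.95 ± 0.15 to 24.6 ± 0.54 CPM in MN1 (1.46 ± 0.06, adjusted p = 2.03e-18). Gfi1b, a repressor that binds LSD1, rose from 0.138 ± 0.021 to 119 ± 8.12 CPM in H9M (9.71 ± 0.13, adjusted p = 2.22e-31) and from 69.8 ± 3.61 to 475 ± 3.25 CPM in MN1 (2.76 ± 0.05, adjusted p = 1.20e-27). Gata2, a factor of mast cells and progenitors, rose by 0.91 ± 0.04 in H9M (adjusted p = 8.09e-18) and 0.50 ± 0.03 in MN1 (adjusted p = 1.37e-13).

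Summed markers of cell types that carry Fc receptors mostly moved with the knockout, not all upward, and their part in the results was not tested. The B cell sum in MN1 and the dendritic cell sum in H9M overlapped between CTL and KO. The summed level of 10 monocyte and macrophage markers was 1412 to 1438 CPM in H9M CTL and 3873 to 4000.1 CPM in H9M KO, and 772 to 779.7 CPM in MN1 CTL and 1107 to 1126 CPM in MN1 KO. That of 10 neutrophil markers was 7916 to 8025 CPM in H9M CTL and 12005 to 12428 CPM in KO, and 1117 to 1170.2 CPM in MN1 CTL and 2712 to 2831 CPM in KO. Of these markers, Ltf was at 0 in H9M CTL and adds nothing to that sum. With ATRA the monocyte sum was 753 to 781 CPM in H9M CTL, 2661 to 2751 CPM in H9M KO, 504 to 554 CPM in MN1 CTL and 1089 to 1162 CPM in MN1 KO. The neutrophil sum with ATRA was 2697 to 2719.96 CPM in H9M CTL, 6612 to 7200.3 CPM in H9M KO, 679.7 to 721 CPM in MN1 CTL and 1606 to 1802 CPM in MN1 KO. With ATRA, Ltf, Ngp, Camp and S100a9 were at 0 in H9M CTL and Ngp was at 0 in H9M KO, so these sums come from the other listed markers. Single markers did not all follow their sum: Adgre1, a macrophage marker, was at 12.2 CPM in H9M CTL and 55.5 CPM with ATRA. That of 13 mast cell and basophil markers was 100.3 to 103 CPM in H9M CTL and 272 to 279 CPM in KO, with Tpsb2, Tpsab1, Cma1 and Mcpt4 at 0 in both, and 1885 to 1934 CPM in MN1 CTL and 3908 to 3995 CPM in KO, where Mcpt4 was at 0 in CTL and none was at 0 in KO. Of the markers of B cells, which carry Fcgr2b, Ms4a1 was at 0 in all 4 of these groups, and Pax5 was at 0 in all but MN1 KO. The B cell markers summed to 18.5 to 18.9 CPM in H9M CTL and 2.38 to 2.91 CPM in KO, and to 0.360 to 0.452 CPM in MN1 CTL and 0.270 to 0.496 CPM in MN1 KO. Of 5 markers of NK cells, which carry Fcgr3, Ncr1 and Gzma were at 0 in H9M, and the sum was 7.88 to 9.62 CPM in CTL and 11.6 to 13.7 CPM in KO. In MN1 the NK sum was 8.38 to 9.54 CPM in CTL and 35.0 to 37.1 CPM in KO, with Gzma at 0. Progenitor markers summed to 884 to 889 CPM in H9M CTL and 1377 to 1392 CPM in KO, and to 3291 to 3409.8 CPM in MN1 CTL and 4170.0 to 4255 CPM in KO. Eosinophil markers summed to 1.41 to 1.77 CPM in H9M CTL and 2.4997 to 3.85 CPM in KO, and to 0.786 to 1.21 CPM in MN1 CTL and 4.47 to 5.49 CPM in KO. Dendritic cell markers summed to 61.2 to 65.0 CPM in H9M CTL and 60.7 to 62.5 CPM in KO, and to 398 to 402 CPM in MN1 CTL and 374 to 384 CPM in KO.

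The genes whose log2 CPM followed each member most closely over the 24 libraries were found by Pearson's r, as a description, since all points share the contrast between the models. Fcgr1 was nearest to Ms4a6c, Atrnl1 and Etv6 (r = 0.976, 0.975 and 0.972), Fcgr2b to Akna, Tcp11l1 and Nlrx1 (0.996, 0.994 and 0.994), Fcgr3 to Slfn2, Rilpl2 and Gpsm3 (0.989, 0.988 and 0.987) and Fcgr4 to Pbxip1, Nlrx1 and Apobr (0.992, 0.991 and 0.990). Fcer1g was nearest to G6pdx, Litaf and Chst1 (0.982, 0.982 and 0.974), and Fcgrt to Fuca1, Pld4 and Nlrx1 (0.990, 0.990 and 0.987). For Fcer1g these genes were at 0.962, 0.992 and 0.989 within the 12 H9M libraries, but at 0.822, 0.595 and 0.458 within the 12 MN1 libraries. Fcer1a was nearest to Tpsb2 (0.997), a tryptase gene of mast cells, then Cps1 and Itm2a (0.996 each), and within the 12 MN1 libraries these were at 0.900, 0.907 and 0.888. Nlrx1 was thus among the 3 nearest genes of Fcgr2b, Fcgr4 and Fcgrt. Among the members themselves, Fcgr1 and Fcgr2b ran together within the H9M libraries (r = 0.974), while Fcgr3 ran apart from Fcgr1 (0.178) and Fcgr2b (0.197). Within the MN1 libraries Fcgr3 and Fcgr2b had r = 0.967, and Fcer1g was the member least like the others, with 0.176 to Fcgr3 and at most 0.616, to Fcer1a.

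H3K4me2 at the gene starts was higher in the GFI1-KD than in the GFI1-WT library for the IgG receptor genes. GFI1 is a repressor that recruits LSD1. This comparison was made in bone marrow cells, not in the transformed cells, and with another perturbation, so it stands beside the RNA results and is not the same contrast. Reads within 1 kb of the start were counted, 8949072 reads being kept in GFI1-WT and 9538627 in GFI1-KD. There was 1 library per label and no replicate check, no test was made, and intervals cover counting error only. Of the 7 members, 6 were at least 1.5-fold higher in GFI1-KD, against 13.3% of the 14883 promoters with at least 20 reads over both libraries.

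Fcgr1 had 40 reads in GFI1-WT and 169 in GFI1-KD, a log2 ratio of 1.99 after scaling to kept reads (exact 95% interval 1.48 to 2.52). Fcgrt had 37 and 125 reads (1.66, interval 1.12 to 2.23). These were the highest ratios of the 7, above 99.1% and 98.5% of all promoters with enough reads, and 27.5% and 23.9% of promoters had less signal than these 2 genes. In the cluster, Fcgr4 had 57 and 132 reads (1.12, interval 0.66 to 1.59), Fcgr3 116 and 247 (1.00, interval 0.67 to 1.33) and Fcgr2b 101 and 207 (0.94, interval 0.59 to 1.30). Fcer1g had 169 and 274 reads (0.61, interval 0.32 to 0.89), just past 1.5-fold, and fell short of it in a window of 0.5 kb (0.55). Fcer1a had 16 and 25 reads (0.55, interval -0.41 to 1.56), a difference not detectable at this depth. In a window of 0.5 kb its ratio was -0.36 and in one of 2 kb it was 0.05.

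The start used for Fcgr3 lies 6512 bases inside the annotated gene. Around the outer end of the gene, a window chosen after these values had been seen held 76 and 96 reads, a log2 ratio of 0.24 (interval -0.20 to 0.70). The higher signal at Fcgr3 was therefore measured around the inner start and was not detectable at the outer end at this depth. By distance from the start, the 250-base bin with most GFI1-KD reads lay 750 to 1000 bases downstream for Fcgr1, Fcgr2b and Fcgr3 and 250 to 500 bases downstream for Fcgrt. For Fcgr4 it lay 1250 to 1500 bases upstream, where 37 reads were counted in GFI1-KD and 17 in GFI1-WT. In the 2 kb upstream of Fcgr4 there were 63 and 204 reads, against 38 and 67 in the 2 kb downstream.

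**Figure D5:**
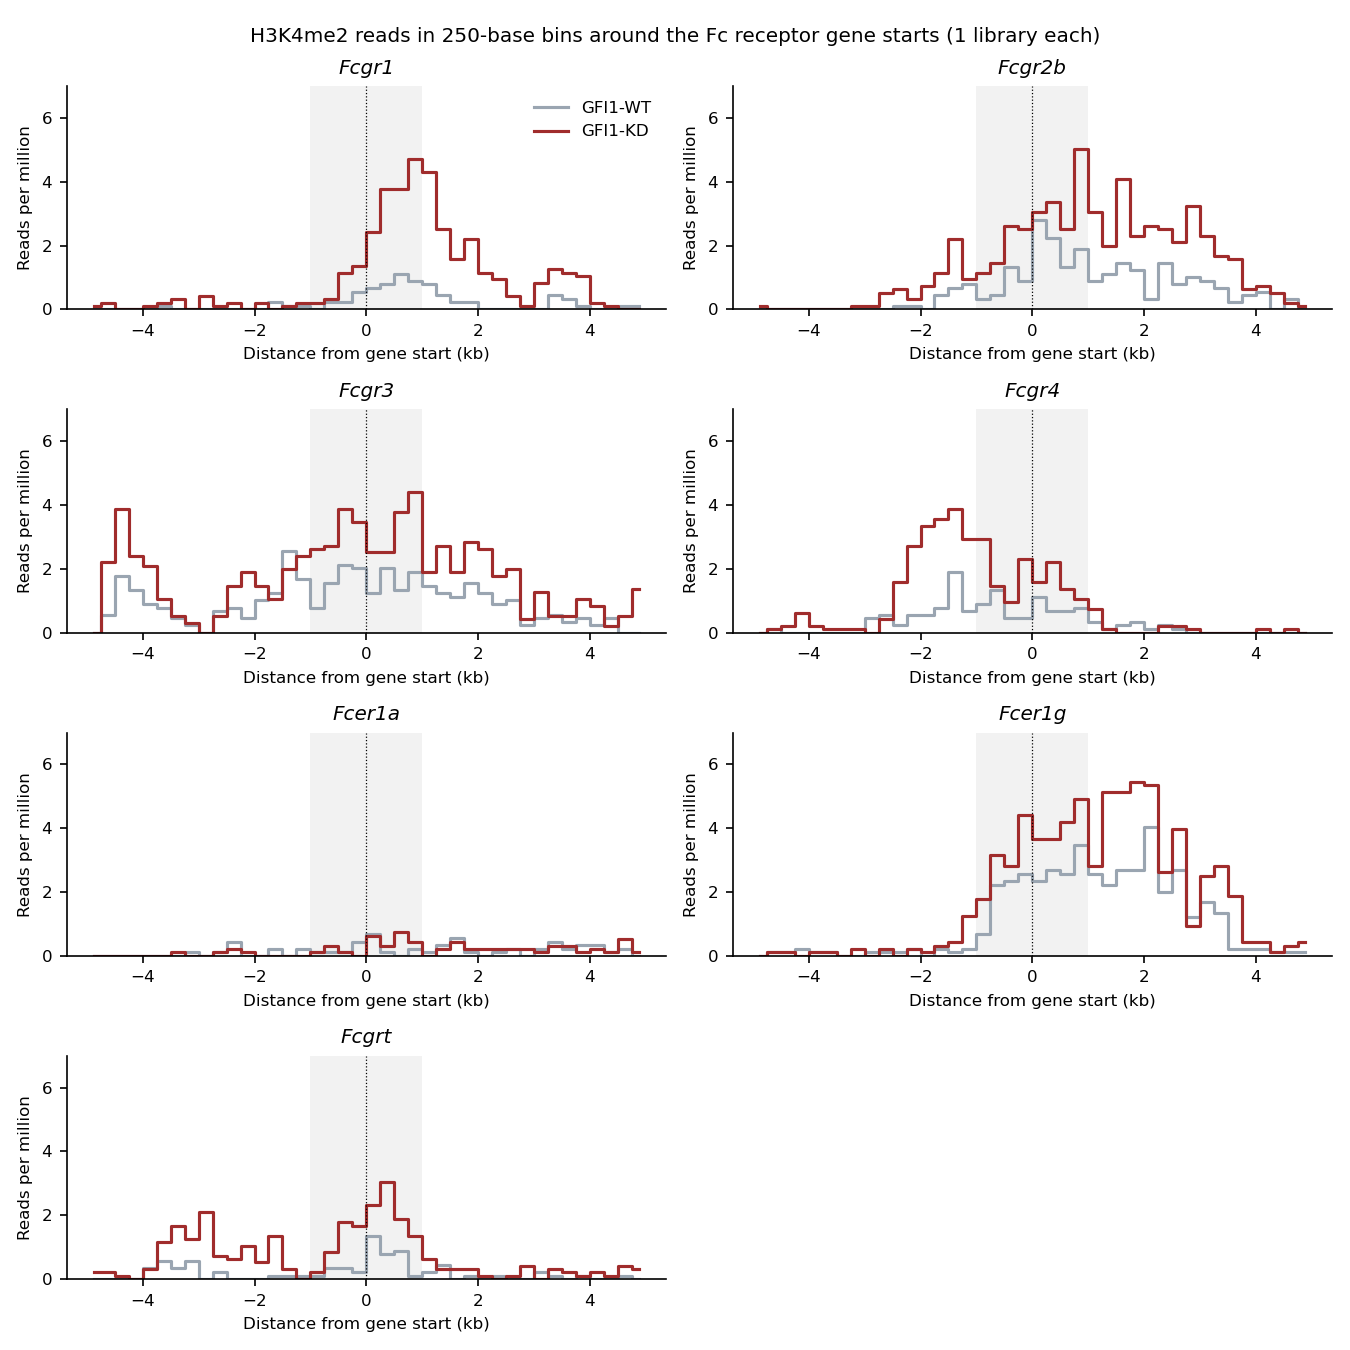
H3K4me2 reads in 250-base bins, scaled to kept reads as RPM (vertical axis) by distance from the gene start in kb (horizontal axis, negative upstream) for the GFI1-WT and GFI1-KD libraries; the shaded band is the 1 kb either side that was counted. The GFI1-KD line lies above GFI1-WT across the band for Fcgr1 and Fcgrt, rises upstream of Fcgr4, and stays near the baseline with GFI1-WT at Fcer1a.

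The genes with the highest H3K4me2 ratios were not in all cases those with the largest knockout effects in RNA. Fcgr1 was first in H9M RNA (4.47) and in H3K4me2 (1.99), but in MN1 RNA the first were Fcgr4 (3.52) and Fcgrt (3.16), with H3K4me2 ratios of 1.12 and 1.66. Fcgr3 had the smallest RNA effect in H9M (0.27) and a H3K4me2 ratio of 1.00. With 7 genes, different cells and different perturbations, no relation between these readouts was tested.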

How the data were processed

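RNA was measured in 24 libraries of 8 groups and H3K4me2 in 2 libraries. Per the labels' protocols, RNA libraries were stranded total RNA sequenced as paired reads; the submitters' processing notes name STAR 2.5.3 for RNA, and for ChIP they name CASAVA 1.8.2, bedtools 2.27.0 and BWA without a version. The authors deposited whole-number counts per gene. No label names the counting tool or says which strand it used, so paralogous or overlapping genes are uncertain. The deposited ChIP files hold 1 aligned read per line with a score, used here as mapping quality (at least 10). Symbols were attached by Ensembl ID (48349 matched, 446 did not).

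Counts were normalised by TMM, filtered by filterByExpr and fitted by glmQLFit and glmQLFTest in edgeR 4.0.16 (R 4.3.3), as 1 model of 8 groups with 16 residual degrees of freedom. P-values are two-sided and adjusted by Benjamini-Hochberg over 14663 genes within each of 15 comparisons. The scripts were tested on simulated data. CPM are counts over the library total. Log2 CPM for likeness used a prior count of 2. Groups with 0 counts were compared against 3 counts over the group. Intervals of RNA log2 fold changes use the SE of the quasi-likelihood test and so include the spread between libraries. Those of H3K4me2 ratios and of the Tarm1 count ratio account for counting alone, because PCR copies cannot be told from separate molecules here. Promoter windows were 1 kb either side of the start in the RefSeq promoter table (GRCm38.p6, the build the processing notes give for the ChIP reads as GRCm38), and reads were scaled to kept reads.

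All 7 members are named in every group. From each gene list, at most 4 members with the smallest adjusted p per comparison are named, as well as Spi1, Irf8, Ms4a2, Syk, Tyrobp, Inpp5d, Ptpn6, B2m, Gata2, Gfi1 and Gfi1b where a result turns on them; a gene named in 1 model is given in both; likeness names the 3 genes with the highest r. The members and lists were chosen with earlier results of these data known. Alternatives tried were RLE normalization, no filter on low counts, DESeq2 1.42.0, a fit of each model alone, a replicate block, leaving out each library, removal of the residual control share, and for ChIP other windows, mapping quality and scaling. Of the neighbouring genes and the cell type markers, 1 each is not reported here.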

Additional observations from a re-analysis of the deposited data

Results flagged for a closer look

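The test of the difference between the models flagged 8 results. The knockout effect without ATRA (MN1 minus H9M, log2) differed by -2.91 for Fcgr1, 1.11 for Fcgr2b, 1.04 for Fcgr3, 1.36 for Fcgr4, -0.48 for Fcer1g and 1.00 for Fcgrt. The ATRA effect in control cells differed by -0.27 for Fcgr3 and -0.34 for Fcer1g. The LR code in the column names differs with the model, so the model and whatever that code stands for cannot be told apart in these values. Groups of 3 libraries were not searched for outlying libraries.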

How the results depend on the processing

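Of 97 member values with a test, 77 kept their direction and their side of the threshold under every alternative run, and 20 changed in at least 1. Calls lost outside the fits that left out 1 library were Fcer1g for ATRA in H9M CTL (0.08, adjusted p = 0.299) and KO (0.10, adjusted p = 0.108) and Fcgr1 between untreated controls (-1.28, adjusted p = 0.0645) without a filter, and Fcgrt for ATRA in H9M KO (-0.17, adjusted p = 0.142) and in the H9M interaction with the residual control share removed. That removal left 1 member called in the H9M interaction in place of 2; the cause was not tested. Leaving out 1 library gave 1 to 2 members called in the H9M interaction and 2 to 3, in place of 4, for ATRA in MN1 CTL. In those fits, values that were not called turned their sign within these ranges: Fcgr2b -0.0367 to 0.0154 for ATRA in H9M CTL; Fcgr1 -0.25 to 0.53 and Fcer1g -0.00915 to 0.0293 in the H9M interaction; Fcgr4 -0.42 to 0.23 for the ATRA effect between models; Fcgr1 -0.53 to 0.16 and Fcer1a -0.22 to 0.10 for ATRA in MN1 CTL; Fcgr1 -0.25 to 0.46 in the MN1 interaction and -0.34 to 0.30 for ATRA in MN1 KO. In the ATRA effect between models, Fcgr2b passed without MN1 CTL replicate 2 (0.26, adjusted p = 0.00256) and Fcgrt without MN1 CTL with ATRA replicate 2 (1.24, adjusted p = 0.0285). The replicate numbers showed at most a weak pairing of the libraries. Same-numbered libraries deviated together by no more than r = 0.077 in any pair of groups. In 1 of 10 pairs of groups, H9M KO and CTL with ATRA, 6 of 6 libraries correlated best with their own number. For ATRA in H9M KO, and for MN1 KO with ATRA against MN1 CTL without it, 5 of 6 did. With the replicate block, the members called were as many as without it in each comparison run, and 7554 genes were called for the H9M knockout effect, against 7557. RLE normalization moved the median log2 fold change of all genes by at most 0.03. The Fcgr3 H3K4me2 ratio of 0.24 at the outer end of the gene, chosen after seeing the data, moved from 1.00. Precision was limited by counts for Fcgr1 and Fcer1a, and for Fcgr4 and Fcgrt in MN1 CTL (19 and 22 counts over the group). For H3K4me2 it was limited by 1 library per label.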
